A study of Mus musculus with 4 samples.

Results

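The genes described here encode the signalling chains of the T cell receptor and surface proteins that tune it. They are the 8 genes Cd3d, Cd3e, Cd3g, Cd247, Lat, Cd5, Cd2 and Cd28, chosen by symbol among the 23284 gene symbols listed for each library. All 8 were found. Their RNA was sequenced from living colonic stromal cells, sorted as 7AAD- and positive for podoplanin, which marks fibroblasts and lymphatic vessels. Cells bearing the leukocyte marker CD45, the endothelial marker CD31 or the epithelial marker EpCAM were gated out. There are 4 libraries, each the sole library of its group. They are IL-10 KO on the C57BL/6J strain and its C57BL/6J wild type, and Rag2 KO on the BALB/c strain and its BALB/c wild type. With a sole library, no group can be given a replicate error or a test, and a gene called higher or lower is so in these libraries. The labels give no treatment, age or number of animals per library.

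The T cell receptor binds antigen but cannot signal by itself. It relies on the CD3 gamma, delta and epsilon chains and on the zeta chain, which Cd247 encodes, whose tails are phosphorylated by the kinase LCK and then bound by the kinase ZAP70. ZAP70 in turn phosphorylates the membrane adaptor LAT, on which the downstream signal is assembled. CD28 binds CD80 and CD86 on other cells and adds the costimulatory signal, CD2 is an adhesion and costimulatory receptor that binds CD48 in mice, and CD5 dampens the signal. In the gut these proteins are carried by T cells of the epithelium and the lamina propria. CD247 is also used by activating receptors of natural killer (NK) cells, CD5 is also carried by a subset of B cells, and LAT also acts in mast cells. These are examples, and the list of other carriers is not complete. RAG2 belongs to the enzyme that joins the segments of antigen receptor genes, and mice without it form no mature T and B cells, and IL-10 is a cytokine that restrains inflammation.

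The 3 CD3 genes lie side by side on chromosome 9. In GRCm38, the assembly of the build mm10 that the submitters' processing notes name, Cd3g spans 44969572 to 44980431 on the minus strand. Cd3d follows at 44981769 to 44987052 on the plus strand, 1337 bases away, so that both are read outwards from the stretch between them. Cd3e lies at 44998735 to 45009663 on the minus strand. Cd247 is on chromosome 1 (165779952 to 165871153), as is Cd28 (60746388 to 60773359). Lat is on chromosome 7 (126363827 to 126369705), Cd2 on chromosome 3 (101275908 to 101287939) and Cd5 on chromosome 19 (10718107 to 10739026).

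Promoter sequences were looked up in RefSeq (GRCm38.p6), where 6 of the 8 genes matched. The 250 bases before the start are shown for the 4 CD3 and zeta chain genes, because these chains signal together and their levels diverged between the libraries. The start is the table's own, which for Cd3d, Cd3e and Cd247 lies inside the span of the gene given above, so that these windows overlap that span. Cd3g is at chr9:44980432-44980681 (minus strand), Cd3d at chr9:44981536-44981785 (plus), Cd3e at chr9:45009612-45009861 (minus) and Cd247 at chr1:165788431-165788680 (plus). Capitals mark CAGGTG, or CACCTG on the other strand, the core bound by E proteins, transcription factors of lymphocyte development.
Cd3g: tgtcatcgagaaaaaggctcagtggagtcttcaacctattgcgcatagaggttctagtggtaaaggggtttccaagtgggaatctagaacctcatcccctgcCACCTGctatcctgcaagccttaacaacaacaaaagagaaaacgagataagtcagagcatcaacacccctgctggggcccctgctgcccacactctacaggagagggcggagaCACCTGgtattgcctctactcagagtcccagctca
Cd3d: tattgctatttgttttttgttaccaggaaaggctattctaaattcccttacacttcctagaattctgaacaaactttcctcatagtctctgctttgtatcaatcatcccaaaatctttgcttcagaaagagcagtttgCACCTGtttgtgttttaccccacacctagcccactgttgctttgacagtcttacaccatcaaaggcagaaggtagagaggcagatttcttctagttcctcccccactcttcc
Cd3e: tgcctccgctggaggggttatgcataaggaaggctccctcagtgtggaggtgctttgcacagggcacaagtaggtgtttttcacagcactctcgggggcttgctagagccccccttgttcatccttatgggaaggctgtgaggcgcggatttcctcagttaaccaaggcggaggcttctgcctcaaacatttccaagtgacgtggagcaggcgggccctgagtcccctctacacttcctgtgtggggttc
Cd247: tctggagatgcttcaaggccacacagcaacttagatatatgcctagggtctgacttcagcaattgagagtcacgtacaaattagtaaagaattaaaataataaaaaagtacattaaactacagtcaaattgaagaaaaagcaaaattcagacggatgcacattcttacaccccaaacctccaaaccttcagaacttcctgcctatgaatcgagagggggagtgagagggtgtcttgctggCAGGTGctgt
These letters occurred in 4 of the 6 windows found (Cd3g, Cd3d, Cd247 and Cd5) and in 17.2% of the 32851 windows of the same length in the table. Cd3g and Cd5 held 2 matches each. The letters AGGAAG, a core of ETS factors, or CTTCCT on the other strand occurred in 5 of the 6 (all but Cd3g), against 29.5% of all windows. Neither the TATA box letters TATAAA nor TGTGGT, a core of RUNX factors, was found in any of the 6, against 12.4% and 14.0% of all windows on either strand. AGATAA, a core of GATA factors, was found in Cd3g alone, against 9.99% of all windows. No motif contains another. They were chosen after the sequences were seen, and such matches are descriptions, not binding sites.

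Levels are in FPKM, fragments scaled to transcript length and library size, which allows a rough comparison between genes. It is rough because single genes can be understated: Gapdh had 0.349 FPKM or less in every library, whereas Actb had 659 or more. Rankings and ratios between genes below carry this limit. Some housekeeping genes also differed between the strains. Rps2 had 43.6 FPKM in IL-10 KO and 39.8 in C57BL/6J wild type. It had 3.52 in Rag2 KO and 2.91 in BALB/c wild type. Rpl3 had 51.0 FPKM in C57BL/6J and 1.13 in BALB/c wild type, whereas Actb (659 and 698) was close. Whether the 8 genes were affected likewise was not tested, so comparisons of levels across strains below carry this limit too. The deposited values kept the steps of whole fragments, from which depths of about 8.39e+06 fragments were estimated for IL-10 KO, 8.74e+06 for C57BL/6J wild type, 9.69e+06 for Rag2 KO and 9.97e+06 for BALB/c wild type. For 7 of the 8 genes the fragment numbers were recovered as whole numbers. Those of Cd247, which has several transcript forms, were only estimated. Intervals are 95% intervals for counting error only (exact Poisson for a level, exact conditional binomial, Clopper-Pearson, for an FPKM ratio). They say nothing of the spread between mice.

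The libraries carry labels that these values cannot check fully. Il10 had 129.9 FPKM in the library labelled IL-10 KO and 3.33 in C57BL/6J wild type, and Rag2 had 0.71 FPKM in the library labelled Rag2 KO against a listed 0 in BALB/c wild type. A value over a whole gene does not show whether its deleted part was present. Xist, transcribed from an inactive X chromosome, had 44.9 FPKM in IL-10 KO and 23.0 in C57BL/6J wild type, and the Y-linked Ddx3y had 0.0269 and 16.9. In Rag2 KO and BALB/c wild type Xist had 0.105 and 0.0509 FPKM, and Ddx3y 31.5 and 36.3. The deleted gene and the sex of the mice cannot be told apart in the C57BL/6J comparison. All 10 fibroblast markers were present in every library, summing to between 11861 and 12656 FPKM. Ptprc, which encodes CD45, was not absent, with 43.1 FPKM in IL-10 KO, 3.34 in C57BL/6J wild type, 11.5 in Rag2 KO and 8.31 in BALB/c wild type. The genes described here are thus read from sorted stroma that held leukocyte transcripts. A few housekeeping genes were near or at 0 (Gapdh 0.349 FPKM or less), so a gene listed at 0 need not be silent.

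All 8 genes were highest in the library labelled IL-10 KO, where they summed to 102.5 FPKM, against 7.14 in C57BL/6J wild type. They summed to 3.14 FPKM in the library labelled Rag2 KO, against 17.2 in BALB/c wild type. Whole fragments of the 7 recovered genes numbered 964 in IL-10 KO, 101 in C57BL/6J wild type, 41 in Rag2 KO and 266 in BALB/c wild type. Single genes among these 7 rested on 73 to 210 fragments in IL-10 KO and 4 to 51 in C57BL/6J wild type, and on 0 to 19 in Rag2 KO and 12 to 128 in BALB/c wild type. In these bulk samples a change in the number of cells of a type and a change in RNA per cell cannot be told apart.

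**Figure D1:**
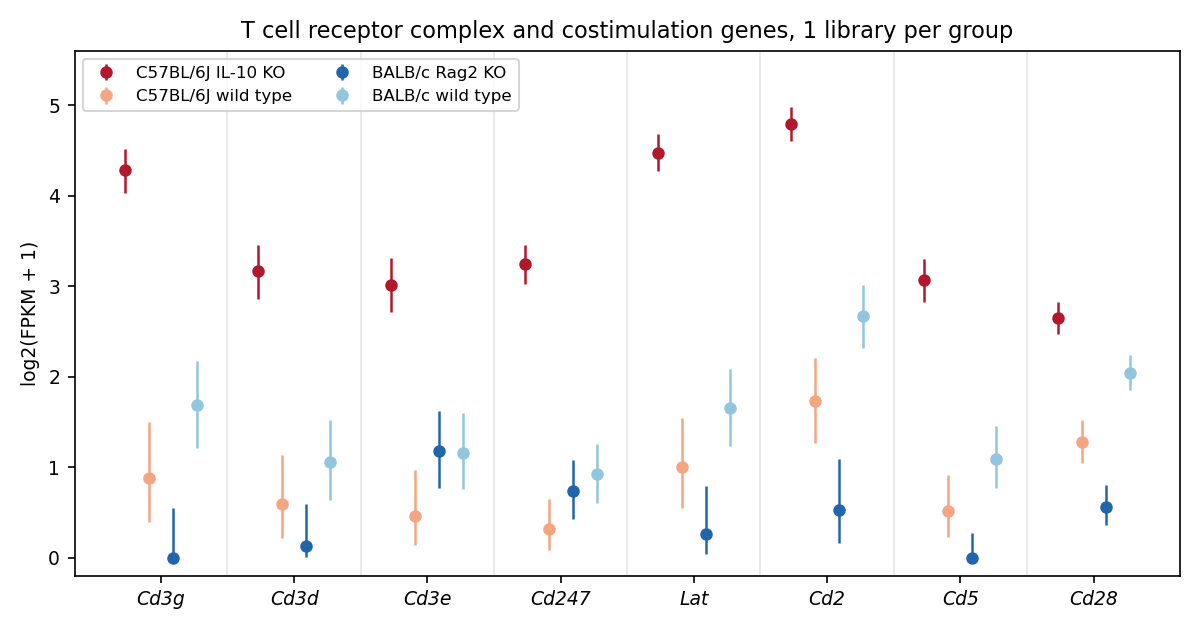
Level of each gene as log2(FPKM + 1) in the 4 libraries, 1 point per library, with exact Poisson 95% intervals for counting error. The IL-10 KO points lie highest for all 8 genes, and the Rag2 KO points are lowest except for Cd3e and Cd247.

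The first comparison asks what the sorted colonic stroma contains when IL-10, by the label, is missing. On the scale of log2(FPKM + 1), used for all counts below, 8 of 8 genes were higher by 2-fold or more in the library labelled IL-10 KO than in C57BL/6J wild type, 0 were lower, and the median difference was 2.75. Among all 12790 genes with at least 1 FPKM in either library, 10.1% were at least 2-fold higher and 3.82% lower, and the median was 0.00. When values were instead scaled to the FPKM of rows that are not small RNAs, that median moved to -0.13, and the higher genes made up 62.4% of those past 2-fold instead of 72.7%. All 8 genes stayed higher under that scaling. With 5 added in place of 1 Cd28 was no longer 2-fold apart (0.68).

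Among the CD3 chains, Cd3g had 18.4 FPKM (126 fragments) in IL-10 KO and 0.842 (6 fragments) in C57BL/6J wild type, a 21.9-fold ratio (interval 9.77 to 60.7). Cd3d had 7.96 FPKM (75 fragments) in IL-10 KO and 0.51 (5 fragments) in wild type, a ratio of 15.6 (6.40 to 49.5). Cd3e had 7.08 FPKM (73 fragments) in IL-10 KO and 0.372 (4 fragments) in wild type, a ratio of 19.0 (7.11 to 71.6). The intervals of all 3 ratios overlapped widely, so the chains that pair with each other did not stand apart here beyond counting error. Cd247 had 8.46 FPKM in IL-10 KO and 0.246 in wild type, the highest ratio of the 8 at 34.4 (14.5 to 141 with estimated fragments). Its interval also overlapped those of the CD3 chains.

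The adaptor gene Lat had 21.2 FPKM (183 fragments) in IL-10 KO and 1.003 (9 fragments) in wild type, a ratio of 21.2 (10.9 to 47.0). Cd5 had 7.36 FPKM (115 fragments) in IL-10 KO and 0.43 (7 fragments) in wild type, a ratio of 17.1 (8.04 to 43.5). Cd2, the most abundant of the 8 in both libraries, had 26.7 FPKM (210 fragments) in IL-10 KO and 2.32 (19 fragments) in wild type, a ratio of 11.5 (7.19 to 19.5). Like the CD3 chains, these 3 genes were more than 10-fold apart. Cd28 was not: it had 5.27 FPKM (182 fragments) in IL-10 KO and 1.42 (51 fragments) in wild type, a ratio of 3.72 (2.71 to 5.17). The upper bound for Cd28 lay below the lower bounds of the other 7 genes, of which the lowest was 6.40. Cd28 was the second of the 8 genes by level in C57BL/6J wild type and the last in IL-10 KO.

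**Figure D2:**
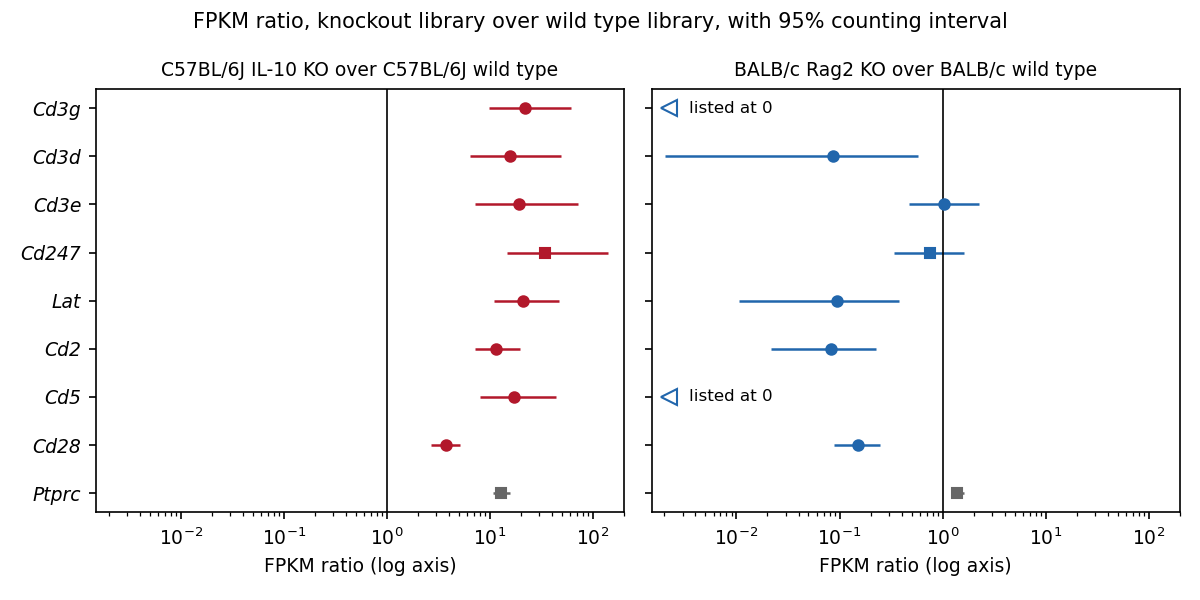
FPKM ratio of the knockout library over its wild type library (log axis) for the 8 genes and Ptprc, with 95% counting intervals; squares have estimated and circles whole fragments, and open triangles mark genes listed at 0 in Rag2 KO. Cd28 has the lowest ratio of the 8 in the IL-10 comparison (3.72), and Cd3e (1.03) and Cd247 (0.749) lie near 1 in the Rag2 comparison.

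Ptprc, read from leukocytes of all kinds, was 12.9-fold higher (10.8 to 15.6 with estimated fragments) in IL-10 KO in the same comparison, and 12 of 12 pan-haematopoietic genes were higher by 2-fold or more. Set against it, Cd3g stood at 42.7% of the Ptprc level in IL-10 KO and 25.2% in wild type, Lat at 49.2% and 30.1%, and Cd247 at 19.6% and 7.38%. Cd3d stood at 18.5% of Ptprc in IL-10 KO and 15.3% in wild type, and Cd3e at 16.4% and 11.2%. Cd2 kept about the same proportion, at 61.9% of Ptprc in IL-10 KO and 69.6% in wild type. Cd28 stood at 12.2% of Ptprc in IL-10 KO and 42.5% in wild type. The Ptprc ratio lay inside the counting intervals of the Cd3d, Cd3e, Cd3g, Lat, Cd5 and Cd2 ratios. It lay above the interval of Cd28 and below that of Cd247, whose own interval overlapped that of Ptprc.

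**Figure D3:**
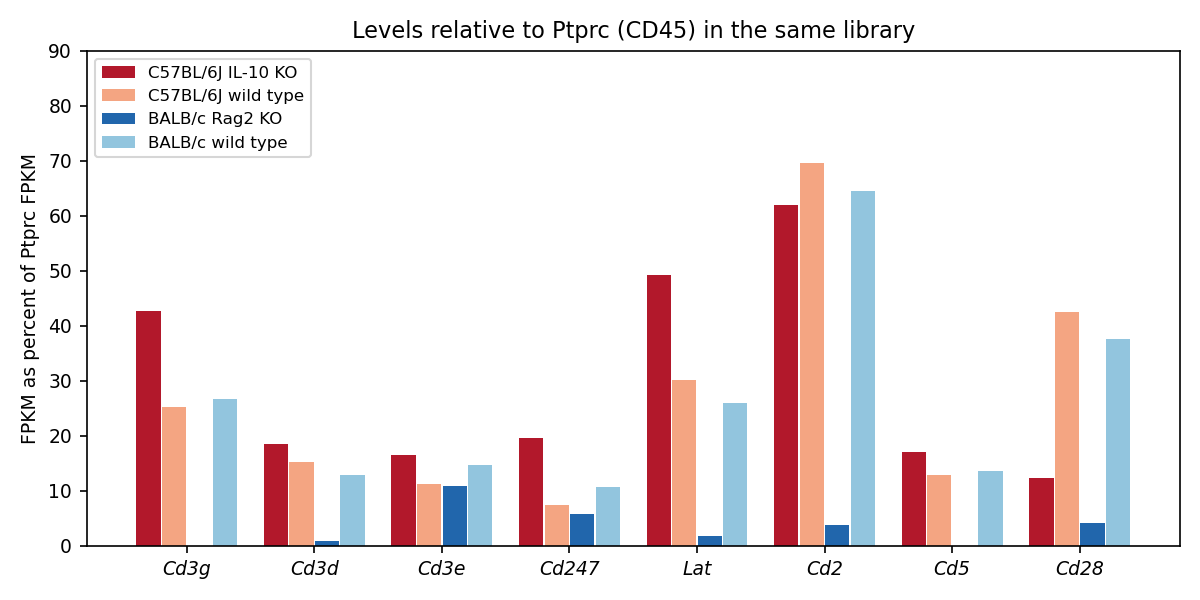
FPKM of each gene as a percentage of the Ptprc FPKM of the same library, 1 bar per library. Cd28 is at 12.2% in IL-10 KO and 42.5% in C57BL/6J wild type, and in Rag2 KO only Cd3e (10.9%) and Cd247 (5.80%) exceed 5%.

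Other genes of the pathway were higher in IL-10 KO as well. Of 18 compared genes of T cell receptor signalling, 14 were higher by 2-fold or more, 0 were lower, and the median difference was 1.69. Lck, the kinase that phosphorylates the CD3 tails, had 13.5 FPKM in IL-10 KO and 1.04 in wild type (difference 2.83), and Zap70 had 6.58 and 0.812 FPKM in the same order (2.06). Lcp2, which encodes an adaptor that joins LAT, had 16.5 FPKM in IL-10 KO and 0.983 in wild type (3.14). Fyn, a kinase that fibroblasts also express and which was named after its values were seen, had 51.2 FPKM in IL-10 KO and 50.6 in wild type.

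Of 20 compared coreceptors and other T cell surface receptors, 17 were higher by 2-fold or more and 0 lower (median 2.02). Ctla4, which competes with CD28 for the same ligands and is abundant in regulatory T cells, had 51.1 FPKM in IL-10 KO and 2.39 in wild type, a difference of 3.94 and the largest of this list. Icos, a costimulatory receptor related to CD28, had 20.9 FPKM in IL-10 KO and 1.65 in wild type (3.04). The inhibitory receptor gene Tigit had 18.3 FPKM in IL-10 KO and 1.06 in wild type (3.23). At 5.27 FPKM in IL-10 KO and a difference of 1.37, Cd28 was below Ctla4, Icos and Tigit. The coreceptor gene Cd4 had 15.5 FPKM in IL-10 KO and 1.62 in wild type (2.65), a 9.55-fold ratio (6.91 to 13.5). The CD8 chain genes were lower in level: Cd8a had 0.782 FPKM in IL-10 KO and 0.0791 in wild type, a ratio of 9.9 (2.39 to 87.6 with estimated fragments). Cd8b1, named after its values were seen, had 1.08 and 0.0946 FPKM.

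The partners of CD28 and CD2 on other cells were also higher. Cd80 had 13.2 FPKM in IL-10 KO and 1.30 in wild type, a difference of 2.63. Cd86 had 19.1 FPKM in IL-10 KO and 2.21 in wild type (2.65), and Cd48 had 11.1 and 0.734 in the same order (2.80). Of the 8 compared ligand genes, 4 were higher by 2-fold or more and 2 were lower. The lower ones were Icosl (29.5 FPKM in IL-10 KO and 67.5 in wild type) and Tnfsf9 (54.3 and 180). Of 10 compared T lineage transcription factors, 5 were higher and 1 lower. Among the higher was Foxp3, the factor of regulatory T cells, with 3.05 FPKM in IL-10 KO and 0.325 in wild type. The lower was Tox, with 3.83 and 8.82 in the same order. Of 7 compared lymphocyte cytokine genes, 6 were higher, with Il17a at 22.4 FPKM in IL-10 KO and 0.356 in wild type and Ifng at 11.7 and 0.114.

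Markers of other cell types were higher beside these genes, and their part in the result was not tested. In the list of innate lymphoid and NK cells 11 of 17 compared genes were at least 2-fold higher, summing to 385.0 FPKM in IL-10 KO and 181 in wild type. Klrb1c, Ncr1 and Gzma were listed at 0 in wild type and none in IL-10 KO. In the B and plasma cell list 10 of 11 were higher (sum 509 FPKM in IL-10 KO and 250.3 in wild type, of which Igj, the gene under 2-fold, made up 395 and 237, with Pax5 listed at 0 in wild type). In the list of macrophages, monocytes and neutrophils 11 of 11 were higher (4767 and 140.0 FPKM, none listed at 0). In the epithelial list 7 of 7 were higher (186 and 56.3 FPKM, none listed at 0). Among 10 fibroblast markers 0 were at least 2-fold apart.

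The next comparison, of Rag2 KO with BALB/c wild type, asks the same where by the label mature T and B cells cannot form. On the log2(FPKM + 1) scale 5 of 7 compared genes were lower by 2-fold or more in the library labelled Rag2 KO, 0 were higher, and the median difference was -1.39. Among all 12336 genes compared, 2.03% were at least 2-fold lower and 4.42% higher, and the median was 0.00. Cd247 was below 1 FPKM in both libraries and was not compared. The number of genes past 2-fold depends on the constant added to these low values: with 5 added instead of 1 it was 0.

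The CD3 chains diverged. Cd3g was listed at 0 in Rag2 KO, where 3 fragments would have been 0.38 FPKM, and had 2.21 FPKM (18 fragments) in BALB/c wild type. Cd3d had 0.0919 FPKM (1 fragment) in Rag2 KO and 1.07 (12 fragments) in wild type, 11.7-fold lower with an interval of 1.73 to 499, and stood just inside 2-fold on the log2(FPKM + 1) scale (-0.92). Cd3e, by contrast, had 1.26 FPKM in Rag2 KO and 1.22 in wild type, with 15 fragments in each, a ratio of 1.03 (0.469 to 2.26). Cd247 had 0.669 FPKM in Rag2 KO and 0.893 in wild type, a ratio of 0.749 (0.335 to 1.60 with estimated fragments). Cd3e and Cd247 were therefore detected in Rag2 KO at levels that could not be told from wild type at this depth. They were the first and second of the 8 genes by level in that library. The interval of Cd247 there (0.348 to 1.12 FPKM with estimated fragments) overlapped that of Cd28 (0.287 to 0.744), so its place is uncertain. In BALB/c wild type Cd3e ranked below Cd2, Cd28, Cd3g and Lat, and Cd247 last.

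Lat had 0.201 FPKM (2 fragments) in Rag2 KO and 2.15 (22 fragments) in wild type, 10.7-fold lower (2.63 to 93.8). Cd2 had 0.441 FPKM (4 fragments) in Rag2 KO and 5.35 (50 fragments) in wild type, 12.2-fold lower (4.46 to 46.3). Cd5 was listed at 0 in Rag2 KO, where 3 fragments would have been 0.166 FPKM, and had 1.13 FPKM (21 fragments) in wild type. Each of these genes rested on 4 fragments or fewer in Rag2 KO. Cd28 had 0.477 FPKM (19 fragments) in Rag2 KO and 3.12 (128 fragments) in wild type, 6.55-fold lower (4.03 to 11.2). In Rag2 KO the levels of Cd28 (interval 0.287 to 0.744 FPKM) and Cd2 (0.12 to 1.13) could not be told apart. Cd28 gave more fragments at a like level because the length its fragments are scaled to is greater (4114 bases against 937 for Cd2). The intervals of the Cd2 and Cd28 ratios lay below those of Cd3e and Cd247, whereas the interval of Cd3d overlapped them because it rests on 1 fragment.

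Overlapping genes limit the reading of Cd3e and Cd247. In GENCODE M21, 135 of the 4080 exon bases of Cd3e are shared with the antisense gene Gm48719, and 3007 of the 5329 exon bases of Cd247 with Pou2f1 on the other strand. Cd247 also shares 206 with Gm16565 on its own strand. Libraries were made with a stranded kit, but the strand setting of the counting is not given in the sources used here. Pou2f1, which encodes a widely expressed transcription factor, had 2.67 FPKM in IL-10 KO, 2.78 in C57BL/6J wild type, 2.39 in Rag2 KO and 3.35 in BALB/c wild type. Cd247 was at 0.246 FPKM in C57BL/6J wild type, where Pou2f1 had 2.78. Lat shares 75 exon bases with the microRNA gene Mir7058.

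Of 12 compared genes of the signalling list, 0 were at least 2-fold lower in Rag2 KO on the log2(FPKM + 1) scale and 1 was higher, with a median of -0.32. As FPKM ratios, which that scale understates for low genes, some were further apart, in either direction. The phosphatase gene Ptpn22 had 0.614 FPKM in Rag2 KO and 1.87 in wild type, 3.05-fold lower (1.67 to 5.87), and Lck had 1.27 and 2.85, 2.24-fold lower (1.35 to 3.83 with estimated fragments). Trat1, which encodes an adaptor of the receptor and was named after its values were seen, was listed at 0 in Rag2 KO and had 0.632 FPKM in wild type. Zap70 had 1.05 FPKM in Rag2 KO and 1.17 in wild type. Lcp2, which myeloid cells also express, was the higher gene, with 4.86 FPKM in Rag2 KO and 1.47 in wild type (1.25). Among 12 compared coreceptors and other surface receptors 2 were lower and 0 higher (median -0.63): Ctla4 with 0.538 FPKM in Rag2 KO and 3.37 in wild type (-1.51), and Cd27, a costimulatory receptor, with 0.904 and 2.85 (-1.01). Icos stayed detectable at 1.76 FPKM in Rag2 KO and 3.52 in wild type, and so did Cd4 at 1.5 and 2.40. Cd6, the neighbour and relative of Cd5, had 0.114 FPKM in Rag2 KO and 0.74 in wild type. In the list of T lineage transcription factors 2 of 8 were lower, Lef1 (0.642 FPKM in Rag2 KO, 2.54 in wild type) and Satb1 (4.02 and 9.77).

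Of 15 compared genes of innate lymphoid and NK cells, 3 were higher by 2-fold or more in Rag2 KO and 0 were lower by as much. The list summed to 183.6 FPKM in Rag2 KO and 174 in wild type, in large part from Id2 and Rora, which other cells also express and which were named after their values were seen. Id2 had 64.5 FPKM in Rag2 KO and 79.6 in wild type (-0.30, interval -0.44 to -0.15). Rora had 20.1 and 28.4 (-0.48, interval -0.58 to -0.38), and the fragments of both genes were estimated. The granzyme gene Gzma had 7.85 FPKM in Rag2 KO and 1.65 in wild type (1.74), and Ncr1, an NK receptor gene whose product signals through CD247, had 1.23 and 0.0799 (1.05). Il7r, a cytokine receptor gene of T cells and innate lymphoid cells, had 1.55 FPKM in Rag2 KO and 2.04 in wild type. Their part in the levels of Cd3e and Cd247 was not tested. Of 5 compared lymphocyte cytokine genes 4 were higher, among them Il22 with 10.7 FPKM in Rag2 KO and 0.798 in wild type and Il13 with 5.89 and 1.71.

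B and plasma cell markers were also lower, 9 of 10 by at least 2-fold, and their part in the levels of the 8 genes was not tested. They summed to 3.20 FPKM in Rag2 KO and 470.5 in wild type, of which the plasma cell gene Igj made up 1.36 and 428. Cd79a had 0.829 FPKM in Rag2 KO and 11.4 in wild type, and Pax5, Pou2af1 and Fcrla were listed at 0 in Rag2 KO. Ptprc was 1.39-fold higher, and of 12 pan-haematopoietic genes 1 was at least 2-fold higher. Of 11 markers of macrophages, monocytes and neutrophils 8 were higher (815 FPKM in Rag2 KO and 268.9 in wild type), and of 7 epithelial markers 7 (91.7 and 18.4 FPKM). Set against Ptprc, Cd3e stood at 10.9% in Rag2 KO and 14.7% in wild type, Cd2 at 3.82% and 64.4%, and Cd28 at 4.13% and 37.6%.

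**Figure D4:**
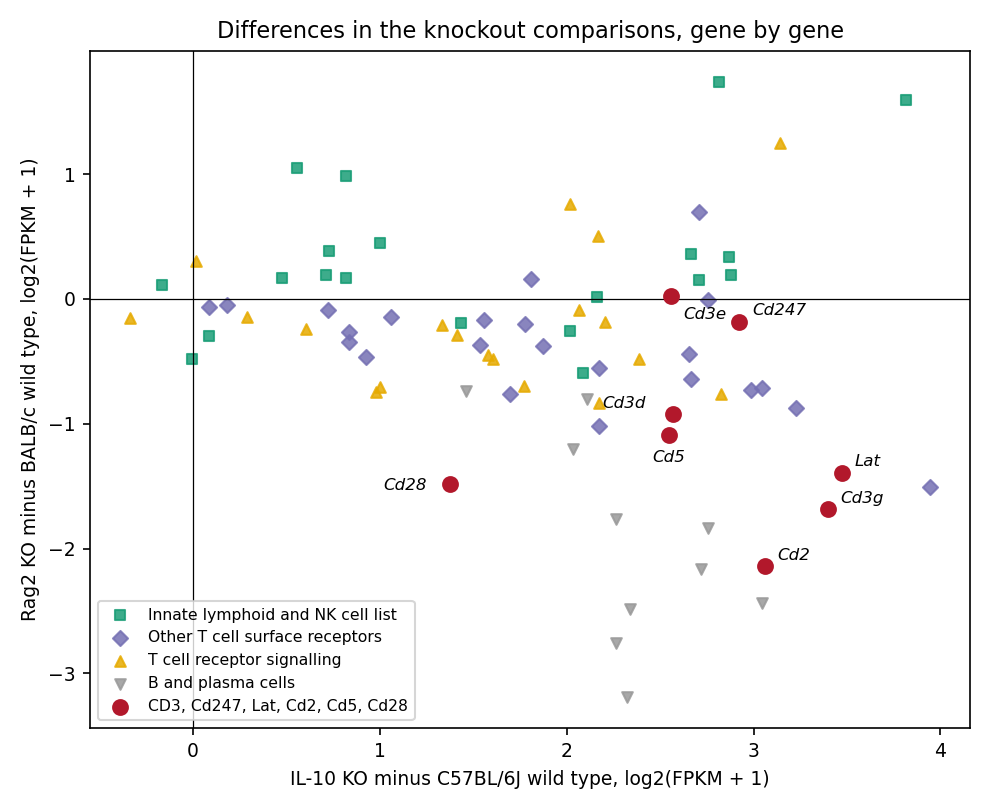
Difference in log2(FPKM + 1) of IL-10 KO minus C57BL/6J wild type (horizontal) and Rag2 KO minus BALB/c wild type (vertical), 1 point per gene of 5 lists; Igj (-7.50 in Rag2 KO) is left out. All 8 genes of the receptor complex and costimulation lie to the right of 0, while Cd3e (0.02) and Cd247 (-0.18) lie near 0 on the vertical axis and Cd2 (-2.14) lowest.

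The knockout comparisons share no library. The difference in the IL-10 comparison exceeded that in the Rag2 comparison by at least 1 on the log2 scale for 8 of 8 genes, and for 7.28% of the 13078 genes with at least 1 FPKM in any library. The median excess of the 8 genes was 3.57. It was highest for Cd2 (5.20) and Cd3g (5.08) and lowest for Cd3e (2.53) and Cd28 (2.86), and Ptprc had 2.92. Strain, deleted gene and the sex of the mice cannot be told apart in this setting.

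Between the wild types, all 8 genes had higher values in BALB/c than in C57BL/6J, but 0 of 7 compared genes were at least 2-fold apart on the log2(FPKM + 1) scale. Among all 12290 genes compared 1.81% were at least 2-fold higher in BALB/c and 2.17% lower. The median difference of the 7 was 0.70, and that of all genes was 0.00. FPKM ratios ran between 2.1 for Cd3d and 3.63 for Cd247. For Cd2 the ratio was 2.31 (1.34 to 4.14) and for Cd28 2.2 (1.58 to 3.11). For Cd3d and Lat the interval held 1. Ptprc had 8.31 FPKM in BALB/c and 3.34 in C57BL/6J wild type, and 6 of 10 compared B and plasma cell markers were at least 2-fold higher in BALB/c, whose part in the result was not tested. Some housekeeping genes were further apart than the 8 genes, such as Rpl3 with 1.13 FPKM in BALB/c and 51.0 in C57BL/6J wild type. Whether the 8 genes were affected likewise was not tested. Strain and the sex of the mice cannot be told apart here. Xist had 0.0509 FPKM in BALB/c and 23.0 in C57BL/6J wild type, and Ddx3y 36.3 and 16.9. This comparison shares a library with each knockout comparison.

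Across the libraries, 6 of the 8 genes followed the same order, with IL-10 KO highest, BALB/c wild type next, then C57BL/6J wild type, and Rag2 KO lowest. Cd3e and Cd247 departed from it, with C57BL/6J wild type lowest. The order of libraries of different strains carries the limit given above for housekeeping genes. For Cd3e the 15 fragments in Rag2 KO and BALB/c wild type did not differ beyond counting error. The step from C57BL/6J wild type to Rag2 KO rests on few fragments, such as 5 and 1 for Cd3d and 9 and 2 for Lat. The level intervals of these libraries overlapped for Cd3d, Cd3g, Lat and Cd5, and did not for Cd2 and Cd28. In both wild types Cd2 was the most abundant of the 8 and Cd28 the second, at 4.37-fold and 2.55-fold the Cd3e level in BALB/c and at 6.23-fold and 3.81-fold in C57BL/6J. In IL-10 KO Cd2 was at 3.77-fold and Cd28 at 0.745-fold the Cd3e level. Cd3g was the most abundant CD3 chain in the IL-10 KO and wild type libraries, at 2.60-fold the Cd3e level in IL-10 KO, 2.26-fold in C57BL/6J wild type and 1.81-fold in BALB/c wild type.

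The genes closest in pattern to the members were sought among 11903 genes with established symbols and at least 1 FPKM in any library. Likeness was the Euclidean distance over the 4 libraries between profiles of log2(FPKM + 1), each centred on its own mean, from the mean profile of the 8 genes. The 10 nearest were Ptprcap (0.28), Icos (0.38), Cd6 (0.39), Lck (0.44), Ptpn22 (0.44), Il21r (0.47), Cd4 (0.48), Stat4 (0.52), Ms4a1 (0.56) and Ccr7 (0.56). Most are expressed by T cells, and Ms4a1 is a marker of B cells. Distances span both strains and so carry the limit given above for housekeeping genes. Among the members themselves Cd5 (0.14) and Cd3d (0.18) lay nearest to the mean profile, which they helped to set, and Cd3e (1.05) and Cd28 (1.15) farthest. Ptprcap, which encodes a protein that associates with CD45, had 19.8 FPKM in IL-10 KO, 2.51 in C57BL/6J wild type, 1.94 in Rag2 KO and 5.34 in BALB/c wild type.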

How the data were processed

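Messenger RNA of 4 sorted stromal libraries was sequenced, 1 library per group. Per the labels' protocols, a miRNeasy kit was used for the RNA and a TruSeq stranded mRNA kit for the libraries. The authors deposited FPKM for each gene symbol. According to the submitters' processing notes, the build was mm10, and the tools were Cuffdiff 2.2.1, TopHat2 2.1.1, SAMtools 0.1.18 and Bowtie2 2.2.8. Not given in the sources used here are the annotation, the strand setting and how libraries were normalized.

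Groups were taken from the sample titles. Differences are of log2(FPKM + 1), over genes with at least 1 FPKM in either library, counted at 2-fold. This scale understates the difference of low genes, so FPKM ratios are given too. No test was made. Relative depth was read from the commonest FPKM ratio of low genes (337 to 344 genes per library), and whole fragments from proportions within 0.001 of a whole number, or 1.5e-05 of the count if that is more. Of 2989 genes below 2 FPKM and above 0 in every library 79.2% were whole. Absolute depth came from a line of fragment worth on GENCODE M21 transcript length (161 of 248 genes within 5% of it), which also fixed the multiple for Cd3g. The recovery was tested on simulated data.

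The members and the 14 lists (162 of 169 genes found) were chosen with earlier results of these data known. The T cell receptor constant chain genes Trac, Trbc1, Trbc2, Trdc and Trgc1 were looked for and were not among the gene symbols listed. Outside the members, up to 4 genes of a list with the largest difference and a fixed set of pathway genes were named. Ptcra, the pre-receptor chain gene, was the gene of the receptor chain list found, and it was below 1 FPKM in every library. Of the 8 endothelial markers 1 was lower in IL-10 KO and 0 were 2-fold apart in Rag2 KO. Computation used Python 3.11.15, NumPy 2.4.6, pandas 2.3.3, SciPy 1.17.1 and matplotlib 3.10.9. Alternatives were another constant, another filter, a 4-fold threshold and a pair of rescalings.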

Additional observations from a re-analysis of the deposited data

How the results depend on the processing

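With 0.1 added in place of 1, the median difference of the members was 3.87 for IL-10 KO and -2.90 for Rag2 KO, and with 5 added it was 1.30 and -0.46. Scaling to rows that are not small RNAs gave 3.16 and -2.10. The members at least 2-fold lower in Rag2 KO, 5 as reported, numbered 6 (Cd3d added) with 0.1 added and with the small RNA rows left out of the scaling, 0 with 5 added and 1 at 4-fold. With a minimum of 5 FPKM 1 member (Cd2) was left, and it was lower, at -2.14. Between the wild types, 6 members were at least 2-fold higher in BALB/c with 0.1 added and 4 with the small RNA rows left out of the scaling, against 0. In the IL-10 comparison the count of 8 stayed at 8 except at 7 with 5 added and at 4-fold.

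Over all genes, IL-10 KO had 1297 higher and 488 lower by 2-fold or more. The higher numbered 611 with 5 added, 846 at a minimum of 5 FPKM and 478 at 4-fold, and the lower 787 with 0.1 added, 182 with 5 added, 834 without small RNAs in the scaling and 62 at 4-fold. In Rag2 KO 545 were higher and 251 lower. The higher numbered 278 with 5 added and 150 at 4-fold, and the lower 532 with 0.1 added, 68 with 5 added, 552 without small RNAs, 159 at a minimum of 5 FPKM and 34 at 4-fold. Without small RNAs the median over all genes moved to -0.14, and higher genes made up 51.7% of those past 2-fold, against 68.5%. In BALB/c against C57BL/6J wild type 223 were higher and 267 lower. The higher numbered 477 with 0.1 added, 56 with 5 added, 416 without small RNAs, 129 at a minimum of 5 FPKM and 41 at 4-fold, and the lower 452 with 0.1 added, 104 with 5 added and 47 at 4-fold.

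Of 96 member differences under these constants and scalings, 53 stayed within the counting interval of the log2(FPKM + 1) difference and 43 moved beyond it. Another constant changes the scale of the difference itself, so these numbers do not measure stability within counting error. Of the differences at least 2-fold apart, 0 changed sign. No paired analysis was possible because each group has 1 library, and no library was left out for the same reason. Counting error is wide in Rag2 KO, where 5 of the 7 recovered members had 4 fragments or fewer.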
